A study of Mus musculus with 4 samples.

Results

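The genes of the cell division cycle were examined in mouse podocytes exposed to IL-12. The list held 45 genes out of the 54532 in the deposited table, matched by symbol with 1 row each. The list and its roles were drawn up with earlier results of these data known, so its counts are a description. Of these, 15 were G1 and G1/S regulators, 11 were DNA replication genes and 19 were G2/M genes. All 45 passed the filter on low counts, which left 14095 genes for the test. The cells were of MPC5, a conditionally immortalized mouse podocyte line. The labels gave 2 control libraries and 2 libraries of cells kept with IL-12 for 6 h, and the study's text gave saline as the control treatment. Both groups were labelled as the same line, and the labels gave no time for the control libraries.

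The cell cycle is driven by cyclin-dependent kinases (CDKs), which act when a cyclin is bound and are held back by CDK inhibitors. In G1, D-type cyclins with CDK4 or CDK6, and then E-type cyclins with CDK2, phosphorylate the retinoblastoma protein and release E2F factors, which turn on the genes of DNA replication. In G2 and mitosis another set of genes is transcribed for the spindle, the kinetochore and chromosome segregation, in part through FOXM1 and B-MYB. Podocytes of the glomerulus are terminally differentiated cells that hardly divide, whereas conditionally immortalized lines carry a temperature-sensitive SV40 large T antigen, which binds the retinoblastoma family, under an interferon-inducible promoter. Such lines proliferate at the permissive temperature and slow down when it is raised. The study's methods describe both a proliferating culture and a differentiation step at the raised temperature without interferon, but do not say which state the sequenced cells were in.

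The total counts were between 18355379 and 20098012 per library, and 3 counts stood for 0.152 to 0.166 CPM (counts scaled to library size with TMM factors), which covers counting error only. The sources used here did not state if replicate libraries were grown as separate cultures, so the p-values measure only the spread between these libraries. Of the podocyte markers, Actn4, Synpo, Cd2ap and Podxl were expressed, while Nphs1, which encodes nephrin, had at most 1 count in a library, Tcf21 and Ptpro had 0, and Wt1 had between 4 and 16. Of the 12 markers 6 passed the filter, 3 of them upregulated (Actn4 and Podxl among them) and 1 downregulated (Synpo). The summed level of the 12 was 1982.3 to 1989.2 CPM in the control group and 1957.0 to 1979.5 CPM in the IL-12 treatment group. Within that sum the largest terms moved in opposite directions. The mean of Actn4 went from 1154.8 to 1298.6 CPM and that of Synpo from 480 to 304 CPM. Markers of other cell types were summed in the same way. The 4 endothelial markers reached at most 0.456 CPM and the 5 leukocyte markers 5.10 to 7.35 CPM, mostly Cd68, with Cd3e at 0. The 4 mesangial markers had 67.6 to 68.6 CPM in the control group and 69.3 to 79.6 CPM in the IL-12 treatment group, with Pdgfrb upregulated, Gata3 downregulated and Ren1 at 0. The 4 tubular markers had 632 to 659 and 517 to 558 CPM, from Lrp2, which was downregulated, with Slc34a1 and Umod at 0. The part of these shifts in the results below was not tested.

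The promoters of the list were scanned for letters known from cell cycle promoters. RefSeq start-site windows of 300 bases (250 before the start and 50 after it, assembly GRCm38.p6) were given for 34 of the 45 genes and were searched on both strands for TTTGAA (the cell cycle homology region, CHR), CCAAT (the NF-Y box) and the E2F-type letters, which were GCGGGAA with its variant GCGCGAA and the further variant GCGCCAA. This last one can share bases with CCAAT, and in 2 of the 38 windows matches of different motifs overlapped. TTTGAA was present in 10 of 14 G2/M promoters (71.4%), in 1 of 10 replication promoters (10%) and in 2 of 10 promoters of G1 and G1/S regulators (20%), against 14.1% of the promoters of genes tested. E2F-type letters were found in 6 of 10 replication promoters (60%), 3 of 14 G2/M promoters (21.4%) and 3 of 10 G1 and G1/S promoters (30%), against 17.0%. CCAAT was present in 13 of 14 G2/M promoters (92.9%), 7 of 10 replication promoters (70%) and 5 of 10 G1 and G1/S promoters (50%), against 43.1%. Among the 6 differential replication genes with a window, E2F-type letters were found in 2 (33.3%), and the Tyms window held no match of any of the motifs. A match is a description of the letters and not a bound site. Promoters of Ccnd1, Ccnd2, Ccne2, Rb1, Cdkn1c, Mcm4, Ccna2, Aurkb, Foxm1, Tpx2 and Kif20a were not in the table. As examples, the 250 bases before the start are printed below for Mcm3, a replication gene that rose (Cdc6 and Rrm2 were passed over because their windows overlap annotated gene sequence, and Tyms because it held no match), and, chosen after their values were seen, a pair of G2/M genes that fell. Mcm3 lies on the minus strand at chr1:20820313-20820562, Kif11 on the plus strand at chr19:37376132-37376381 and Mki67 on the minus strand at chr7:135716380-135716629. Capitals mark the motif matches, on either strand.
Mcm3: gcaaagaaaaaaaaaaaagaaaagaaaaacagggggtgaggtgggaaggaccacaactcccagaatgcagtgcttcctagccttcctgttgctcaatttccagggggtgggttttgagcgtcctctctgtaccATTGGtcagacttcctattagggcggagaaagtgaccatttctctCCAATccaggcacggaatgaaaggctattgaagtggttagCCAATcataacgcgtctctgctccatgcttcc
Kif11: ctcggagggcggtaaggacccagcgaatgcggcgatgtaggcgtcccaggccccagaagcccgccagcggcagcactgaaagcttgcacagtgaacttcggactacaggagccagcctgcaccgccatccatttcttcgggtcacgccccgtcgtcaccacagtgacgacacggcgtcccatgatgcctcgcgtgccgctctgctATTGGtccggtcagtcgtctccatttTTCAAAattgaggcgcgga
Mki67: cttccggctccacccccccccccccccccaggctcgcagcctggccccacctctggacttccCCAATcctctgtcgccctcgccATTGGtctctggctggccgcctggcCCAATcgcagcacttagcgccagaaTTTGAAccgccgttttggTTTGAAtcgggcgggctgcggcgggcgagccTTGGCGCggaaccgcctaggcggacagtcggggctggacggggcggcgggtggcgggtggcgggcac
The Mcm3 stretch holds 3 CCAAT matches and no TTTGAA, and 3 more matches, of the E2F type, lie in the 50 bases after its start. In Kif11, 1 CCAAT match begins 45 bases before the start and 1 TTTGAA match 19 bases before it, both on the opposite strand. Mki67 holds 3 CCAAT, 2 TTTGAA and 1 E2F-type match.

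When the IL-12 treatment group was compared with the control group, 19 of the 45 genes were differential by edgeR's quasi-likelihood test at an adjusted p below 0.05, of which 12 were upregulated and 7 were downregulated. That is 42.2% of the list, against 30.5% of all genes tested (16.1% upregulated and 14.4% downregulated). Scaling by total counts in place of TMM moved the share of upregulated genes among all differential genes from 52.8% to 40.5%. No cell cycle gene passed the 2-fold limit that the study added to its screening criteria, which 1.61% of all genes tested passed (0.858% upregulated and 0.752% downregulated), nor did any at an unadjusted p below 0.05 by edgeR or with the DESeq2 Wald test. The 3 roles differed in their counts. The replication genes had 7 upregulated and 0 downregulated, the G2/M genes 0 upregulated and 4 downregulated, and the G1 and G1/S regulators 5 upregulated and 3 downregulated. Both zeros were also 0 at an unadjusted p below 0.05 by edgeR, with the DESeq2 Wald test and with limma voom. The log2 differences (IL-12 minus control, given throughout with ± the standard error) ran from -0.50 for Cdkn1b to 0.55 for Ccnd1. Fewer cells in a phase and less RNA per cell cannot be told apart in bulk libraries.

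**Figure D1:**
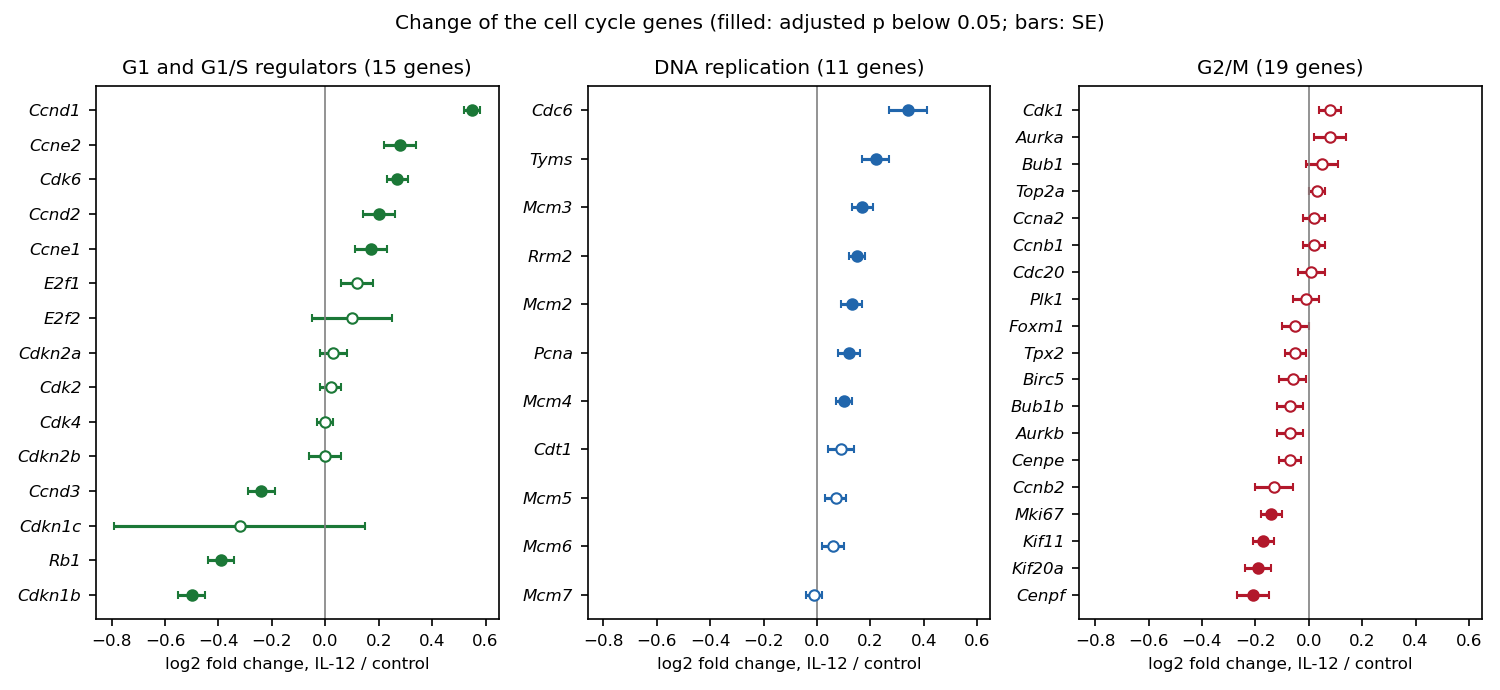
Log2 fold change of each gene (IL-12 over control, horizontal axis) with its standard error (bars), by role; filled points passed an adjusted p of 0.05. Of the filled points, all 7 replication genes lie to the right of 0 and all 4 G2/M genes to the left, while Ccnd1 (0.55) and Cdkn1b (-0.50) are the extremes of the first panel.

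Among the D-type cyclins, the G1 partners of CDK4 and CDK6, Ccnd1 rose most. Ccnd1 (ENSMUSG00000070348, chromosome 7 from 144929931 to 144939925, GRCm38) had 378 and 371 CPM in the control libraries against 556 and 543 CPM in the IL-12 libraries. The gap between the groups was much wider than that within either. The log2 difference was 0.55 ± 0.03, an increase of 46.9% (edgeR adjusted p = 1.09e-10). Ccnd2 (chromosome 6 from 127125162 to 127152193) had 43.2 and 45.8 CPM in the control libraries against 50.3 and 51.6 CPM in the IL-12 libraries, a log2 difference of 0.20 ± 0.06 (edgeR adjusted p = 0.0183). Ccnd3 (chromosome 17 from 47505051 to 47599691) moved the other way, from 95.6 and 95.4 CPM to 81.4 and 80.8 CPM, a log2 difference of -0.24 ± 0.05 (edgeR adjusted p = 0.000692). The D-type cyclins therefore did not move as one. By FPKM, which is scaled to gene length and lets levels be compared between genes, Ccnd1 was the most abundant D-type cyclin with a mean of 98.2 FPKM over the 4 libraries, followed by Ccnd3 with 10.1 and Ccnd2 with 5.08. Ccnd1 made up 83.8% and 83.4% of the summed D-type cyclin FPKM in the control libraries against 89.0% and 88.7% in the IL-12 libraries, and Ccnd3 went from 11.4% and 11.5% to 6.99% and 7.08%.

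The E-type cyclins, which activate CDK2 at the start of S phase, were both higher in the IL-12 treatment group. Ccne2 (chromosome 4 from 11191351 to 11204779) had 39.7 and 40.3 CPM in the control libraries against 49.6 and 47.8 CPM in the IL-12 libraries, a log2 difference of 0.28 ± 0.06 (edgeR adjusted p = 0.00148). Ccne1 (chromosome 7 from 38097984 to 38107534) had 46.1 and 50.7 CPM against 54.9 and 53.7 CPM, a log2 difference of 0.17 ± 0.06 (edgeR adjusted p = 0.0455). Neither gene overlapped between groups, which held for 62.9% of all genes tested, and the control libraries of Ccne1 differed by more than those of Ccne2. Ccnd2 and Ccne1 lost the call without control library 1 and without either IL-12 library (adjusted p up to 0.144 and 0.384 over the alternatives), which left 3 upregulated regulators.

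Of the kinases, Cdk6 was the one that changed. Cdk6 (chromosome 5 from 3341485 to 3531008) had 153 and 152 CPM in the control libraries against 179 and 191 CPM in the IL-12 libraries, a log2 difference of 0.27 ± 0.04 (edgeR adjusted p = 4.97e-05). Cdk4, the other partner of the D-type cyclins, had 495 CPM in both control libraries against 503 and 486 CPM in the IL-12 libraries, a log2 difference of 0.00 ± 0.03. Cdk2 had 103 to 105 CPM in all 4 libraries and a log2 difference of 0.02 ± 0.04. Per length, Cdk4 was far above Cdk6, with means of 152 and 12.1 FPKM, and the ratio of Cdk6 to Cdk4 in FPKM was 0.072 and 0.0715 in the control libraries against 0.0825 and 0.0914 in the IL-12 libraries.

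Of the negative regulators of G1, Cdkn1b and Rb1 were downregulated. Cdkn1b (ENSMUSG00000003031, chromosome 6 from 134920401 to 134925513), which encodes the inhibitor p27 of CDK2 complexes, had 90.2 and 87.2 CPM in the control libraries against 62.7 and 63.1 CPM in the IL-12 libraries. It fell by 29.1%, a log2 difference of -0.50 ± 0.05 (edgeR adjusted p = 3.45e-07). Rb1 (ENSMUSG00000022105, chromosome 14 from 73183673 to 73325822), the retinoblastoma gene, had 92.6 and 94.0 CPM against 69.1 and 73.8 CPM, a log2 difference of -0.39 ± 0.05 (edgeR adjusted p = 8.81e-06). Both IL-12 libraries lay below both control libraries for each, as in 31.2% of all genes tested. With Ccnd1 rising and Cdkn1b falling, the ratio of Ccnd1 to Cdkn1b in FPKM was 4.05 and 4.12 in the control libraries against 8.57 and 8.33 in the IL-12 libraries, a pair chosen after the values were seen.

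The other CDK inhibitors of the list did not pass the test. Cdkn2a, which encodes an inhibitor of CDK4 and CDK6 and, in another reading frame, the Arf protein that stabilizes p53, had 166 and 184 CPM in the control libraries against 186 and 171 CPM in the IL-12 libraries, and gene counts cannot separate its products. Cdkn2b, its neighbour on chromosome 4, had 50.6 and 53.1 against 53.0 and 50.9 CPM. The groups overlapped in both, with log2 differences of 0.03 and 0.00 (standard errors 0.05 and 0.06). Cdkn1c, which encodes the inhibitor p57 that marks mature podocytes in the kidney, was close to absent, with 10 and 25 counts in the control libraries against 16 and 12 in the IL-12 libraries, and a difference was not detectable at this depth (log2 difference -0.32, standard error 0.47). By mean FPKM, Cdkn2a (151) stood above Cdkn2b (37.3), Cdkn1b (16.7) and Cdkn1c (0.408). The E2F factors E2f1 and E2f2 had log2 differences of 0.12 and 0.10 (standard errors 0.06 and 0.15), which did not pass (edgeR adjusted p = 0.167 and 0.687). In each, both IL-12 libraries lay above both control libraries, as in 31.7% of all genes tested (62.9% did not overlap in either direction).

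**Figure D2:**
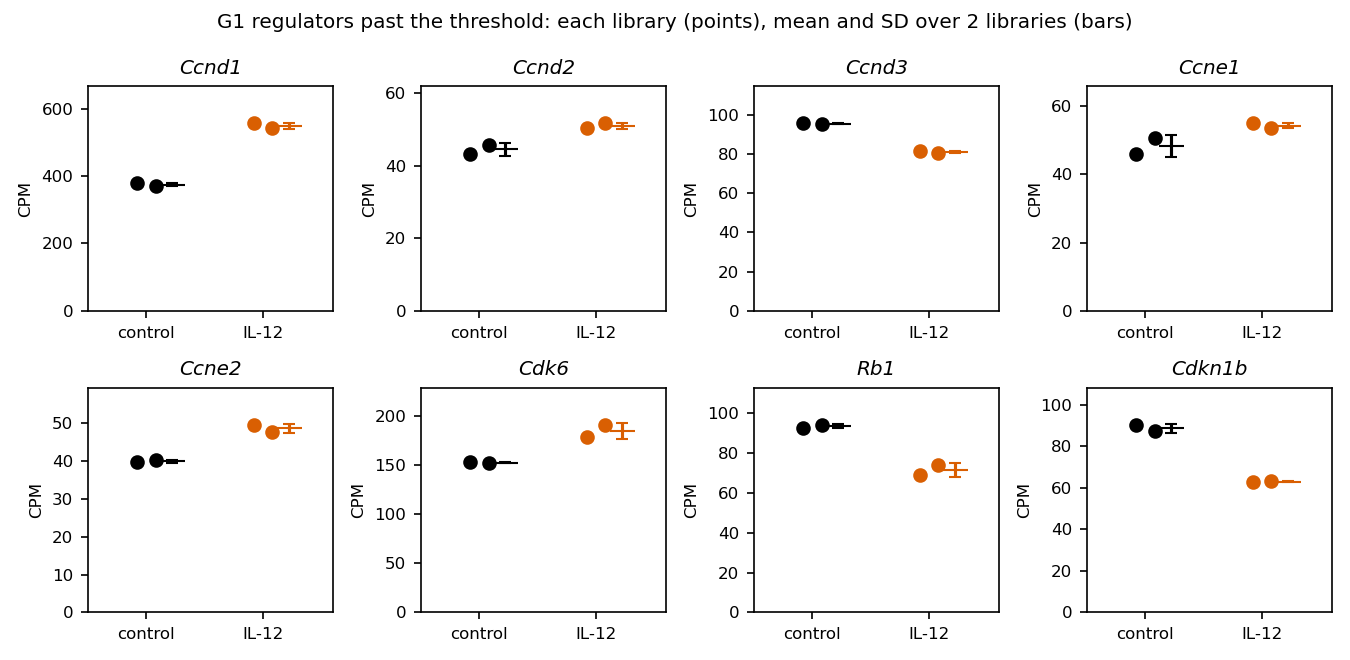
CPM of the 8 G1 and G1/S regulators past the threshold in each library (points, linear axes from 0) with the mean and SD over 2 libraries. Ccnd1 goes from 378 and 371 to 556 and 543 CPM and Cdkn1b from 90.2 and 87.2 to 62.7 and 63.1 CPM. The 8 genes were taken because they passed the test.

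Antisense neighbours bear on some of these values, since the counting was not stated to use strand. Ccnd3 overlaps Bysl on the opposite strand, which had 3328 counts over the 4 libraries against 6686 for Ccnd3 and a log2 difference of 0.48, opposite in sign to that of Ccnd3. Ccne2 overlaps Ints8, with 4030 counts against 3359 and a log2 difference of 0.13. Rb1 overlaps Rcbtb2 and Lpar6, with 3291 and 2907 counts against 6230 and log2 differences of 0.03 and -0.02. The values of Ccnd3, Ccne2 and Rb1 are uncertain to that extent. Ccnd1, Cdkn1b and Cdk6 had no such neighbour above 5.16% of their own counts.

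Most of the 11 replication genes rose, by small steps. The 7 upregulated genes were Cdc6, Tyms, Mcm3, Rrm2, Mcm2, Pcna and Mcm4. They were 63.6% of the 11, against 16.1% of all genes tested upregulated and 30.5% differential in either direction. The median log2 difference of the 11 genes was 0.122, against -0.002 for all genes tested, and 10 of the 11 were above 0. In 9 of them both IL-12 libraries lay above both control libraries, as was the case for 31.7% of all genes tested. Leaving out control library 1 or IL-12 library 1 left 4 genes upregulated (Cdc6, Tyms, Rrm2 and Mcm3), and so did scaling by total counts.

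The largest step was that of Cdc6, whose product loads the MCM helicase onto origins together with CDT1. Cdc6 (ENSMUSG00000017499, chromosome 11 from 98907801 to 98923940) had 28.2 and 29.3 CPM in the control libraries against 37.3 and 35.7 CPM in the IL-12 libraries, a log2 difference of 0.34 ± 0.07 (edgeR adjusted p = 0.00102). Cdt1 had 79.0 and 81.0 against 86.7 and 84.1 CPM, a log2 difference of 0.09 ± 0.05, which did not pass (edgeR adjusted p = 0.157). Both loading factors were thus higher in both IL-12 libraries, but the step of Cdt1 was within 2 standard errors of 0.

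Of the genes for nucleotide supply, Tyms, which encodes thymidylate synthase, and Rrm2, the small subunit of ribonucleotide reductase, were both upregulated. Tyms (chromosome 5 from 30058202 to 30073617) had 87.4 and 87.9 CPM in the control libraries against 101 and 103 CPM in the IL-12 libraries, a log2 difference of 0.22 ± 0.05 (edgeR adjusted p = 0.0014). Rrm2 (chromosome 12 from 24708241 to 24714146) had 326 and 318 CPM against 361 and 354 CPM, a log2 difference of 0.15 ± 0.03 (edgeR adjusted p = 0.00149). Rrm2 had the highest mean level per length of the replication genes, at 123 FPKM, and its libraries did not overlap between groups.

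The MCM2-7 helicase unwinds DNA as one complex, and its genes were measured at 139 to 321 CPM. Mcm3 (chromosome 1 from 20802968 to 20820312) had 158 and 159 CPM in the control libraries against 182 and 174 CPM in the IL-12 libraries, a log2 difference of 0.17 ± 0.04 (edgeR adjusted p = 0.00286). Mcm2 (chromosome 6 from 88883474 to 88898780) had 265 and 274 against 303 and 287 CPM, a log2 difference of 0.13 ± 0.04 (edgeR adjusted p = 0.00932). Mcm4 (chromosome 16 from 15623897 to 15637400) had 293 and 296 against 320 and 309 CPM, a log2 difference of 0.10 ± 0.03 (edgeR adjusted p = 0.0354). Mcm5, Mcm6 and Mcm7 had log2 differences of 0.07, 0.06 and -0.01 (standard errors 0.04, 0.04 and 0.03) and did not pass the test. Mcm7 overlaps Cops6 and Ap4m1 on the opposite strand, with 13979 and 2985 counts against 23892 and log2 differences of 0.00 and -0.26. The value of Mcm7 is uncertain to that extent. Pcna, the sliding clamp of the replication fork (chromosome 2 from 132249162 to 132253314), had 212 and 215 CPM in the control libraries against 233 and 231 CPM in the IL-12 libraries, a log2 difference of 0.12 ± 0.04 (edgeR adjusted p = 0.013). Its pseudogene Pcna-ps2 had 67 counts against 16850.

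**Figure D3:**
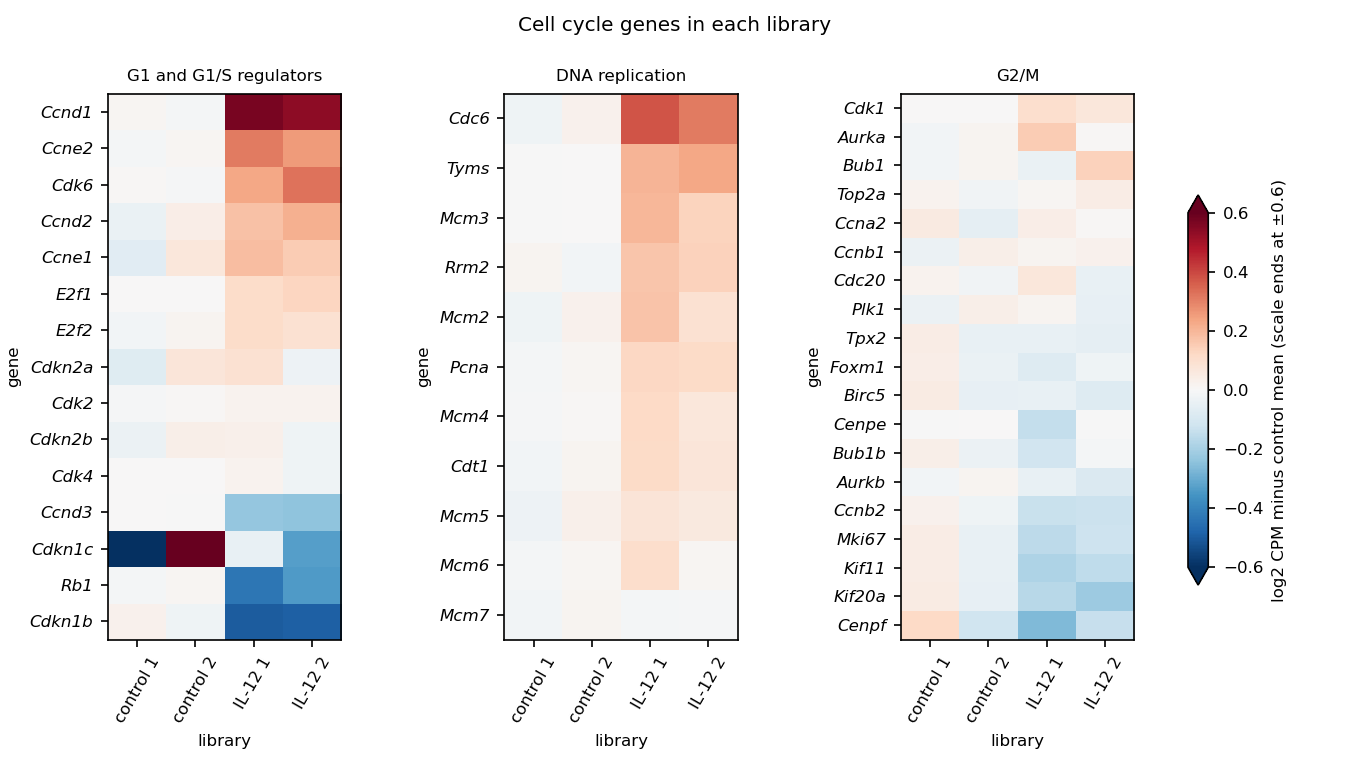
Each gene (rows, ordered by fold change) in each library (columns) as log2 CPM minus the mean of the control libraries, by role, with the colour scale ending at 0.6 in either direction. The replication panel is red in nearly every IL-12 square, with Cdc6 at the top (log2 difference 0.34), while the G2/M panel is mostly pale and turns blue towards Cenpf (-0.21); Cdkn1c, with 10 to 25 counts, differs most between the control libraries.

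The G2/M genes stood at their control level or slightly below it. Of the 19, 0 were upregulated and 4 were downregulated, with a range of log2 differences from -0.21 to 0.08 and a median of -0.049. The 4 were 21.1% of the role, against 14.4% of all genes tested downregulated and 30.5% differential in either direction. The role thus had a smaller share of differential genes than all genes tested. Below 0 were 12 genes and above 0 were 7. In 8 genes both IL-12 libraries lay below both control libraries and in 1, Cdk1, above them, against 31.2% and 31.7% of all genes tested (62.9% in either direction).

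The 4 downregulated genes were Kif11, Mki67, Kif20a and Cenpf. Kif11 (chromosome 19 from 37376403 to 37421859), the kinesin that pushes spindle poles apart, had 162 and 152 CPM in the control libraries against 138 and 141 CPM in the IL-12 libraries, a log2 difference of -0.17 ± 0.04 (edgeR adjusted p = 0.00541). Mki67 (chromosome 7 from 135689784 to 135716361), which encodes the proliferation antigen Ki-67, had 321 and 301 against 279 and 285 CPM, a log2 difference of -0.14 ± 0.04 (edgeR adjusted p = 0.00603). In both genes, and also in Kif20a and Cenpf, control library 1 was the highest of the 4 libraries. Kif20a (chromosome 18 from 34624624 to 34633265), a kinesin of cytokinesis, had 103 and 96.0 CPM against 88.7 and 85.5 CPM, a log2 difference of -0.19 ± 0.05 (edgeR adjusted p = 0.00686). Cenpf (chromosome 1 from 189640606 to 189688086), a kinetochore protein, had 116 and 98.5 CPM against 89.0 and 97.1 CPM, a log2 difference of -0.21 ± 0.06 (edgeR adjusted p = 0.0194). Without control library 1, 0 of the 19 G2/M genes passed, with log2 differences of -0.12, -0.09, -0.14 and -0.08 for Kif11, Mki67, Kif20a and Cenpf, and without IL-12 library 1 only Kif20a did. Kif20a overlaps Cdc23 on the opposite strand, which had 7532 counts against 7060 and a log2 difference of -0.03, so its value is uncertain.

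The other 15 G2/M genes did not pass the test, although Cenpe did without IL-12 library 2 (log2 difference -0.14, edgeR adjusted p = 0.0384). The mitotic engine itself was among them. Cdk1, the mitotic kinase, had 123 CPM in both control libraries against 132 and 129 CPM in the IL-12 libraries, a log2 difference of 0.08 ± 0.04 (edgeR adjusted p = 0.167). Its cyclins Ccna2, Ccnb1 and Ccnb2 had log2 differences of 0.02, 0.02 and -0.13 (standard errors 0.04, 0.04 and 0.07). Ccna2 overlaps Exosc9 on the opposite strand, with 2859 counts against 12765. The kinases Plk1, Aurka and Aurkb, which build and orient the spindle, had -0.01, 0.08 and -0.07 (standard errors 0.05, 0.06 and 0.05). Of the checkpoint and exit genes, Bub1 had 0.05, Bub1b -0.07 and Cdc20, the activator of the anaphase-promoting complex, 0.01 (standard errors 0.06, 0.05 and 0.05), and Cdc20 overlaps Elovl1, with 3439 counts against 9797. Top2a, the topoisomerase that untangles chromosomes, had 356 and 346 CPM in the control libraries against 354 and 362 CPM in the IL-12 libraries, a log2 difference of 0.03 ± 0.03. Cenpe, Tpx2, Birc5 and Foxm1, a transcription factor of this programme, had log2 differences of -0.07, -0.05, -0.06 and -0.05. Their standard errors were 0.04, 0.04, 0.05 and 0.05. Per length, Cdc20 (69.3 FPKM), Ccna2 (41.3 FPKM) and Top2a (39.4 FPKM) had the highest mean levels of the G2/M genes and Cenpf (6.49 FPKM) the lowest.

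Set side by side, the summed level of the 11 replication genes was 2092.7 and 2120.3 CPM in the control libraries against 2295.5 and 2235.3 CPM in the IL-12 libraries, while that of the 19 G2/M genes was 2526.6 and 2434.9 against 2389.8 and 2414.4 CPM. The groups did not overlap in either sum, and the sums moved in opposite directions. Most of the net fall of the G2/M sum was that of its downregulated genes. Their mean CPM went from 311 to 282 for Mki67 and from 157 to 140 for Kif11. For Cenpf it went from 107 to 93.1 and for Kif20a from 99.4 to 87.1. The fall of the sum is therefore not a shift of the whole role. For the G2/M sum, however, control library 2 (2434.9 CPM) lay closer to IL-12 library 2 (2414.4 CPM) than to control library 1 (2526.6 CPM). The ratio of the replication sum to the G2/M sum was 0.828 and 0.871 in the control libraries against 0.961 and 0.926 in the IL-12 libraries. The sum of the 15 G1 and G1/S regulators was 1799.9 and 1820.4 against 2001.4 and 1969.8 CPM. Nearly all of this net difference was that of Ccnd1. These sums are descriptions of a chosen list, and the difference between the roles was not tested.

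**Figure D4:**
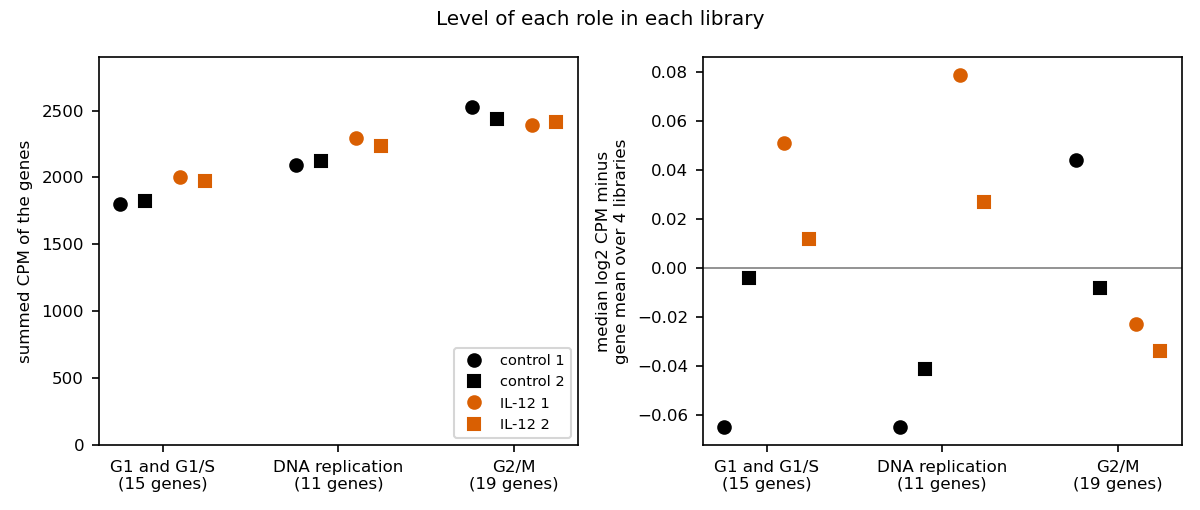
Summed CPM of each role in each library (left, linear axis from 0) and the median over its genes of log2 CPM minus the gene's mean over the 4 libraries (right). The replication genes have medians of -0.065 and -0.041 in the control libraries against 0.079 and 0.027 in the IL-12 libraries, and the G2/M genes 0.044 and -0.008 against -0.023 and -0.034.

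A further list of 80 cell cycle genes outside the 45 was read from the same fit. All 80 passed the filter, 12 were upregulated and 11 downregulated (28.7%, against 30.5% of all genes tested), 0 of them over 2-fold, and the median log2 difference was 0.002. By the rule of smallest p-value, the first 6 were Mxd4, Ccng2, Myc, Gadd45g, Btg2 and Nusap1. Myc, a growth-promoting transcription factor, had 50.5 and 50.2 CPM in the control libraries against 76.3 and 75.9 CPM in the IL-12 libraries, a log2 difference of 0.60 ± 0.05 (edgeR adjusted p = 5.86e-08). Mxd4, which competes with MYC for their shared partner MAX, had 169 and 167 against 99.5 and 100 CPM, a log2 difference of -0.75 ± 0.04 (edgeR adjusted p = 1.47e-10). Myc and its competitor thus moved in opposite directions. Ccng2, a cyclin linked to cell cycle arrest, had 134 and 130 against 88 and 87.9 CPM, a log2 difference of -0.58 ± 0.05 (edgeR adjusted p = 1.3e-08). Btg2, an antiproliferative gene, had a log2 difference of -0.32 ± 0.04 and Nusap1, a spindle protein, of -0.39 (standard error 0.05). Gadd45g, a stress gene that inhibits CDK1, rose from 94.8 and 107 to 165 and 148 CPM, a log2 difference of 0.64 ± 0.06 (edgeR adjusted p = 8.98e-08).

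Other genes of this list were chosen after their values were seen, because they are close relatives of the members. Rbl2, which encodes the retinoblastoma relative p130, had 50.7 and 47.1 CPM in the control libraries against 35.8 and 37.5 CPM in the IL-12 libraries, a log2 difference of -0.42 ± 0.07 (edgeR adjusted p = 7.29e-05), while its relative Rbl1, which encodes p107, had 84.6 and 80.0 against 81.4 and 85.6 CPM and a log2 difference of 0.02 ± 0.05. The CDK4 and CDK6 inhibitors Cdkn2c and Cdkn2d had log2 differences of -0.27 and -0.42 (standard errors 0.05 and 0.09), with edgeR adjusted p = 0.000208 and 0.00138. Both fell, as Cdkn1b did, while Cdkn1a, the p21 gene and the inhibitor with the highest mean FPKM (289), had 1006.9 and 1010.3 against 1057.9 and 1030.2 CPM and a log2 difference of 0.05 ± 0.03 (edgeR adjusted p = 0.166). Also chosen after the values were seen, the other upregulated genes of this list included E2f4, Mybl2, Ung, Uhrf1, Cdc45, Tk1, Tfdp1, E2f3 and E2f6. Mybl2, the B-MYB gene, had a log2 difference of 0.31 ± 0.06 (edgeR adjusted p = 0.000421). The remaining downregulated genes were Ndc80, Mxd1, Tfdp2 and Hmmr. Replication genes of the further list that did not pass included Orc1, Orc6, Mcm10, Gins1, Gins2, Pola1, Pold1, Pole, Prim1, Rfc3 and Rfc4. Rpa2, Fen1, Lig1, Rrm1, Chaf1a and Chaf1b did not pass either. The log2 differences of these genes ran from -0.09 for Chaf1b to 0.26 for Orc1. The E2F genes E2f5, E2f7 and E2f8 did not pass, with log2 differences of 0.14, 0.11 and 0.20 (standard errors 0.09, 0.06 and 0.09).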

How the data were processed

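RNA-sequencing of mouse podocytes of the MPC5 line was analysed, with 2 control libraries and 2 libraries treated with IL-12 for 6 h. Groups and replicate numbers came from the sample titles. The authors deposited raw counts per gene, as whole numbers with no scaling, and FPKM values. For genes with at least 10 counts in a library, the deposited FPKM equals the count divided by gene length and library total, times a constant of its library (0.985 to 1.02), and FPKM was used only to compare levels between genes. The submitters' processing notes name HISAT2, StringTie and the build mm9, whereas the gene positions in the tables match GENCODE M21 (GRCm38) for 98.3% of the 54409 shared genes and for 44 of the 45 members, and are given in that build. The counting program and its strand setting are not given in the sources used here.

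Genes were filtered with edgeR's filterByExpr (minimum count 10, total 15) and scaled by TMM, and the test was edgeR's quasi-likelihood test over 14095 genes, adjusted by Benjamini-Hochberg (R 4.3.3, edgeR 4.0.16, limma 3.58.1, DESeq2 1.42.0). Python 3.11.15 and matplotlib 3.10.9 made the figures. The standard error of a log2 difference is its size over the root of the F statistic. With 2 libraries a group, the smallest two-sided p of an exact permutation test is 0.333. The sources used here did not state if the same-numbered libraries were paired. Their deviations from the group means correlated with -0.0297 over genes. That single value cannot settle it, since a pairing could touch only some genes, and a replicate block was among the alternatives. The members, roles and gene lists were chosen with earlier results of these data known. Named were the differential members with full statistics for those with the smallest p, the most abundant members, the 6 genes of the further list with the smallest p, and others marked as chosen later. Ccne1, Mcm4 and Cenpf also have full statistics, beyond the planned 16. Alternatives were DESeq2's size factors, total counts, the DESeq2 Wald test, limma voom, no filter, at least 10 counts in every library, a replicate block, each library left out, the 2-fold limit and an adjusted p below 0.01. The tests were checked on simulated counts with changes of 2-fold, which no member reached, so that check does not cover smaller steps. Promoter windows are RefSeq's (GRCm38.p6). Some genes of the further list and of the marker lists are not reported here by name.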

Additional observations from a re-analysis of the deposited data

How the results depend on the processing

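Of the 19 differential members, 10 (Ccnd1, Ccnd3, Ccne2, Cdc6, Cdk6, Cdkn1b, Mcm3, Rb1, Rrm2 and Tyms) passed the adjusted p of 0.05 in all 11 refits, and none of the 19 changed sign in any of them. The other 9 lost the call in at least 1 refit, and the cause was not tested. With the DESeq2 Wald test 3 G1 and G1/S regulators were upregulated, and 1492 genes were higher and 1213 lower over all genes. Without a filter 3 regulators were upregulated. With scaling by total counts 3 regulators and 4 replication genes were upregulated, the median log2 differences were -0.009 for the G1 and G1/S regulators (a change of sign), 0.082 for the replication genes and -0.090 for the G2/M genes, and that of all genes tested was -0.043 in place of -0.002. Under that scaling the sign also turned for genes that had not passed, Cdk2 (-0.02), Cdkn2a (-0.01), Cdkn2b (-0.04), Ccna2 (-0.02), Ccnb1 (-0.02), Top2a (-0.01) and Cdc20 (-0.03). With the 2-fold limit 121 genes were upregulated and 106 downregulated over all genes, with 0 members and 0 genes of the further list. At an adjusted p below 0.01, 3 regulators were upregulated and 1299 genes were lower over all genes.

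With each library left out in turn, 3 to 5 G1 and G1/S regulators were upregulated and 3 downregulated, 4 to 7 replication genes were upregulated, and 0 to 4 G2/M genes were downregulated, the 0 being without control library 1. The regulators also numbered 3 without control library 1 and without either IL-12 library. The further list had 8 to 11 genes upregulated and 8 to 11 downregulated, and all genes tested 1523 to 1998 and 1273 to 1769. The median log2 differences ranged from 0.016 to 0.112 for the regulators, 0.092 to 0.129 for the replication genes and -0.074 to -0.012 for the G2/M genes. Genes that had not passed and turned sign were Bub1 (-0.04 to 0.14), Ccna2 (-0.03 to 0.08), Ccnb1 (-0.01 to 0.05), Cdc20 (-0.05 to 0.06), Cdk4 (-0.03 to 0.02), Cdkn1c (-0.84 to 0.48), Cdkn2a (-0.04 to 0.10), Cdkn2b (-0.03 to 0.04), Mcm7 (-0.03 to 0.00) and Plk1 (-0.05 to 0.02). With the replicate block, 6 replication genes were upregulated, Mcm4 having lost its call (adjusted p = 0.0659), and no other call of a member changed, with 5 regulators upregulated, 3 downregulated and 4 G2/M genes downregulated. Each side of a left-out fit with 1 library is assumed to vary like the other group. Cdkn1c, at 10 to 25 counts, was limited by depth.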
